A study of Mus musculus with 14 samples.

Results

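The complement and coagulation genes of hepatocytes are 38 mouse genes, chosen by name, whose liver-made products act in complement, in clotting or in the removal of clots. All 38 had a row among the 30436 features of the table, 21431 of which carried a gene symbol, and all 38 were among the 12300 features that passed the filter on low counts. Their transcripts were counted by sequencing RNA from livers and liver tumours of C3HeB/FeJ males, inbred mice in which hepatocellular carcinomas arise spontaneously. All samples are labelled as 18 months old. The 4 Normal samples are livers of mice given phosphate citrate buffer. Of the 10 tumours, 6 are labelled Grow and 4 Regress, and the labels do not define how either was scored. Grow 1 and Grow 5 had received the solvent DMSO, and Grow 6 the histone deacetylase inhibitor SAHA at 100 mg/kg. Grow 2, Grow 3 and Grow 4 had received SAHA at 85 mg/kg together with temozolomide (TMZ), a DNA-alkylating drug, at 22 mg/kg. Regress 1 and Regress 3 had received TMZ at 31 mg/kg, Regress 2 buffer and Regress 4 DMSO. Since Regress 2 was the only tumour given buffer, effects of the tumour and of what was given cannot be told apart for the other 9. Nothing in the labels says that the samples of a group come from separate animals, so each p-value measures only the spread between these samples.

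Complement is a cascade of plasma proteins that starts from mannose-binding lectins, from antibody through C1, or from the slow turnover of C3 itself. Every route leads to cleavage of C3 and then of C5, after which C5b, C6, C7, C8 and C9 assemble into a pore in the target membrane. Clotting proceeds from tissue factor and factor VII or from the contact factors to thrombin, which turns fibrinogen into fibrin, while plasmin dissolves fibrin again. Hepatocytes secrete most of these proteins into the blood, and hepatocyte nuclear factors and inflammatory signals set the transcription of many of their genes.

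Values are given in CPM, read counts scaled to a common library size after TMM adjustment for library composition, and group values are means ± SD over 4 Normal, 6 Grow and 4 Regress samples. Library totals ran from 4.71 to 13.39 M (mega) estimated counts. The summed level of 5 hepatocyte markers (Alb, Ttr, Apoa1, Cps1 and Asgr1), most of it Alb, was 46800 to 71800 CPM in Normal, 37200 and 37300 in Grow 4 and Grow 3, 71100 in Regress 1 and 150000 to 218000 in the other 7 tumours, so hepatocyte transcripts were abundant in every sample. Grow 3 and Grow 4 were closer to each other than any other pair of libraries, with a median absolute log2 difference over the 38 genes of 0.058. They carry different labels and were kept as 2 samples. They differed by 22.0 times the variance of counting per feature, a yardstick that covers counting error only and cannot tell 2 tumours from 2 libraries of 1 tumour. Normal 4 shares its code in the labels with Regress 2. Libraries also differed in how level depended on transcript length, as described below for the 38 genes. In bulk tissue, fewer hepatocytes and less RNA per hepatocyte cannot be told apart.

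All tumours were first set against normal liver, to ask how the set differs in spontaneous carcinomas. None of the 38 genes passed an adjusted p of 0.05 in either direction, against 1.59% of all tested features called higher and 0.732% called lower in tumours. Most members nevertheless lay on the lower side. Of the 38, 28 had a negative and 10 a positive fitted difference, with a median log2 fold change of -0.25, while the median over all 12300 features was 0.01 and 49.1% of them were negative. By role, all 7 genes that start the lectin and classical routes and all 6 genes of membrane attack were negative under TMM, DESeq2 size factors and library totals alike, though 1 gene of each role was positive without Grow 3 and Grow 4. At an unadjusted p under 0.05 edgeR gave 6 of the 38 genes, C8b, C4b, Klkb1, C9, Vtn and Masp1, all lower in tumours, which is 15.8% of the members against 18.0% of all features. DESeq2 and limma-voom also called none of the 38 at an adjusted p of 0.05, with 7 and 4 at an unadjusted p under 0.05, or 18.4 and 10.5% of the members against 19.7 and 15.3% of all features. Without Grow 3 and Grow 4, the split was 23 negative and 15 positive and the median -0.15, a setting chosen after the data were seen.

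**Figure D1:**
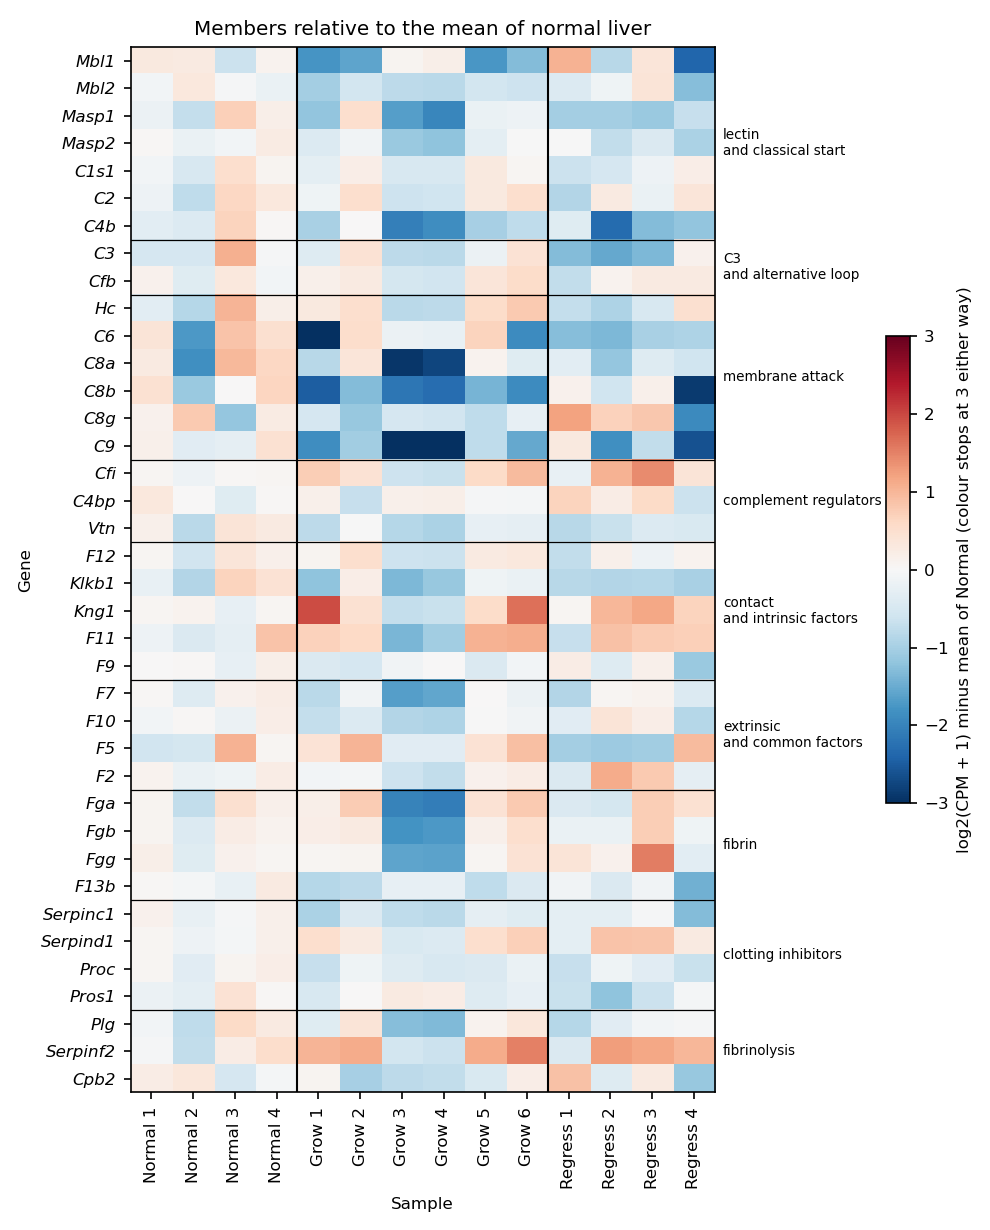
Each row is a gene, each column a sample, and colour gives log2(CPM + 1) minus the mean of the 4 normal livers, with colour ending at 3 either way and lines between roles and groups. Columns Grow 3 and Grow 4 are blue over most roles, C8b and C9 are blue across Grow, and Kng1, Cfi and Serpinf2 are red in most tumours.

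Levels of different genes are comparable only per length, so the order of the members is given in CPM per kilobase of the longest RefSeq transcript. In normal liver the fibrinogen chain Fgg stood highest at 2062 ± 318 CPM per kilobase, followed by Fga at 1508 ± 476, C3 at 1347 ± 796, Vtn at 1207 ± 380, Kng1 at 1114 ± 117, Fgb at 1060 ± 186 and F2 at 910.1 ± 123. From Fga to Fgb neighbours in this order differed by less than their SD. At the other end were Masp1 at 12.03, Pros1 at 17.7 and Klkb1 at 24.4 CPM per kilobase. Kng1, the fifth in Normal, had the highest mean in Grow, at 2043 ± 1493 CPM per kilobase, a rank that rested on Grow 1. Without Grow 1 its mean was 1597 against 1683 CPM per kilobase for Fgg, and by medians over Grow it lay at 1569 below Fgg at 2119 and Fga at 1798. Together the 38 genes took 4.07 ± 0.993% of the counts in Normal, 3.83 ± 1.20% in Grow and 3.64 ± 0.946% in Regress. The complement genes among them took 1.65 ± 0.60, 1.35 ± 0.322 and 1.08 ± 0.376%, and the clotting genes 2.43 ± 0.444, 2.48 ± 0.935 and 2.56 ± 0.716% in the same order, differences smaller than the spread within groups for clotting and close to it for complement.

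The lectin and classical routes start with Mbl1 and Mbl2, the mannose-binding lectins, and with proteases that cleave C4 and C2. All 7 genes here had lower fitted values in tumours, and C4b and Masp1 had an unadjusted p under 0.05. Mbl2 stood at 276, 368, 287 and 254 CPM in Normal 1 to 4, from 144 through a median of 181 to 201 CPM in Grow, and at 221, 267, 382 and 121 CPM in Regress 1 to 4. Every Grow tumour lay below every normal liver, while the Regress tumours lay on both sides of the normal range. Mean Mbl2 was 296 ± 49.8, 179 ± 22.5 and 248 ± 108 CPM in Normal, Grow and Regress, and the Tumour against Normal log2 fold change from edgeR's quasi-likelihood test was -0.49 ± 0.25 (SE, adjusted p = 0.333). Mbl1 averaged 196 ± 52.1, 111 ± 75.8 and 194 ± 157 CPM, with the groups overlapping. Masp1, a protease that sits on the lectins, stood at 53.2, 36.6, 98.9 and 68.4 CPM in Normal 1 to 4, from 14.9 through a median of 39.3 to 86.4 CPM in Grow, and at 29.4, 29.1, 27.3 and 37.2 CPM in Regress 1 to 4. Regress 1, 2 and 3 lay below all normal livers and Regress 4 just above the lowest of them, while Grow spanned the normal range and below. Its means were 64.3 ± 26.5, 42.0 ± 27.5 and 30.7 ± 4.43 CPM, with a log2 fold change of -0.84 ± 0.39 (edgeR, adjusted p = 0.276). Masp2, the protease that cleaves C4 and C2, stood at 176, 149, 162 and 205 CPM in Normal 1 to 4, from 73.6 through a median of 135 to 169.5 CPM in Grow, and at 170.4, 103, 127 and 88.2 CPM in Regress 1 to 4. Only Grow 2, Grow 6 and Regress 1 of the 10 tumours reached the normal range. Its means were 173 ± 24.2, 125 ± 40.4 and 122 ± 36.0 CPM, and edgeR gave -0.49 ± 0.26 on the log2 scale (adjusted p = 0.351). The Masp2 values sum 2 transcript rows. The longer, which includes the protease domain, held on average 61.3, 63.6 and 58.2% of the Masp2 counts in Normal, Grow and Regress.

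C4b, the substrate whose fragment anchors the classical C3 convertase, stood at 163, 154, 325 and 209 CPM in Normal 1 to 4, from 48.4 through a median of 102 to 203 CPM in Grow, and at 159, 39.9, 81.6 and 89.6 CPM in Regress 1 to 4. Of the tumours, Grow 2 and Regress 1 reached the normal range and the other 8 lay below it. Mean C4b was 213 ± 78.7, 105 ± 55.9 and 92.5 ± 49.3 CPM, and the log2 fold change was -1.11 ± 0.38 (edgeR, adjusted p = 0.127). Without Regress 1 the adjusted p of C4b was 0.0459, the only setting in which a member passed in this comparison. C4a, a near-identical neighbour, ran from 34.9 to 477 CPM in Normal and from 1.76 to 185 CPM in tumours, so the split of reads between C4a and C4b is uncertain. C4a lay below the normal range in 5 of the 10 tumours and inside it in the other 5. C2, the protease part of the same convertase, stood at 86.2, 56.2, 149 and 119.7 CPM in Normal 1 to 4, from 62.7 through a median of 103 to 137 CPM in Grow, and at 51.6, 117, 84.5 and 124 CPM in Regress 1 to 4. All tumours but Regress 1 lay inside the normal range. Mean C2 was 103 ± 40.3, 101 ± 34.5 and 94.3 ± 33.3 CPM, with a log2 fold change of -0.08 ± 0.32 (edgeR, adjusted p = 0.963). C1s1, the C1 protease that cleaves C4 and C2, averaged 311 ± 88.1, 284 ± 66.9 and 256 ± 67.9 CPM, and its near copy C1s2 was at 8.67 to 26.0 CPM.

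C3, at which the routes meet, and Cfb, the protease of the alternative loop, had no common direction. C3 stood at 4341, 4344, 12928 and 6060 CPM in Normal 1 to 4, from 3531 through a median of 5086 to 8384 CPM in Grow, and at 2497, 2128, 2450 and 6802 CPM in Regress 1 to 4. Normal 3 held more than any other sample. Grow 3, Grow 4 and Regress 1, 2 and 3 lay below every normal liver, and Regress 4 lay among the normal livers. Mean C3 was 6918 ± 4088, 5667 ± 2205 and 3469 ± 2228 CPM, and edgeR's log2 fold change was -0.64 ± 0.41 (adjusted p = 0.484). Cfb stood at 1281, 908, 1445 and 1113 CPM in Normal 1 to 4, from 782 through a median of 1351 to 1714 CPM in Grow, and at 704, 1268, 1408 and 1399 CPM in Regress 1 to 4. Grow 3, Grow 4 and Regress 1 lay below the normal range, Grow 5 and Grow 6 above it. The means of Cfb were 1187 ± 230.0, 1254 ± 378 and 1195 ± 333 CPM, with a log2 fold change of 0.04 ± 0.29 (edgeR, adjusted p = 0.977).

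The membrane attack genes had the lowest median of the 9 roles, a log2 fold change of -0.92 in Tumour against Normal, and included C8b and C9, the members furthest from 0. C8b, one of 3 chains of C8, stood at 444, 148, 324 and 502 CPM in Normal 1 to 4, from 57.4 through a median of 78.5 to 129 CPM in Grow, and at 354, 213, 355 and 42.7 CPM in Regress 1 to 4. No Grow tumour reached the lowest normal liver, and of the Regress tumours 3 lay within the normal range and Regress 4 below all others. Mean C8b was 354 ± 157, 88.3 ± 30.1 and 241 ± 148 CPM. The log2 fold change was -1.28 ± 0.43 in Tumour against Normal (edgeR, adjusted p = 0.121) and -2.005 ± 0.49 in Grow against Normal (edgeR, adjusted p = 0.0503). C9, the protein that forms the wall of the pore, stood at 819.6, 582, 617 and 1027 CPM in Normal 1 to 4, from 41.7 through a median of 228 to 436 CPM in Grow, and at 913, 207, 444 and 119.6 CPM in Regress 1 to 4. Again every Grow tumour lay below every normal liver, by the most in Grow 3 and Grow 4, while Regress 1 lay within the normal range and the other 3 below it. Mean C9 was 762 ± 205, 224 ± 161 and 421 ± 355 CPM, with a log2 fold change of -1.31 ± 0.58 (edgeR, adjusted p = 0.247). C6, which joins the pore after C5b, stood at 141, 32.1, 195 and 149.5 CPM in Normal 1 to 4, from 12.01 through a median of 93.3 to 173 CPM in Grow, and at 44.1, 41.5, 54.6 and 56.0 CPM in Regress 1 to 4. Normal 2 lay below the other normal livers, and every Regress tumour lay between it and them. The means of C6 were 129.6 ± 69.2, 92.5 ± 64.7 and 49.1 ± 7.30 CPM, and edgeR gave -0.94 ± 0.54 on the log2 scale (adjusted p = 0.4).

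C8g, the small lipocalin-like chain of C8, stood at 482, 765, 199 and 525.9 CPM in Normal 1 to 4, from 201 through a median of 303 to 375 CPM in Grow, and at 1018, 719.8, 778 and 118 CPM in Regress 1 to 4. The Grow values all lay inside the normal range, Regress 1 and Regress 3 above it and Regress 4 below it. Mean C8g was 492.8 ± 232, 293 ± 58.1 and 659 ± 383 CPM, and the log2 fold change was -0.17 ± 0.43 (edgeR, adjusted p = 0.926). C8a, the chain that C8g binds, averaged 740.1 ± 426, 394 ± 283 and 399 ± 93.7 CPM, and Hc, the gene of C5, averaged 840.1 ± 481, 872 ± 363 and 607 ± 298 CPM, both with overlapping groups. The 3 C8 chains act in 1 complex but did not keep 1 ratio. Per length, the log2 ratio of C8a to C8b was 1.71 to 1.88 in Grow 1, 2, 5 and 6 and 2.52 in Regress 4, against -0.53 to 1.16 in Normal, -0.56 and -0.28 in Grow 3 and Grow 4, and -0.36 to -0.26 in Regress 1, 2 and 3. The libraries with the high ratio also had higher levels for longer transcripts, as did Normal 3, and the part of this in the ratio was not tested directly. With the length trend removed, C8b had a log2 fold change of -1.94 ± 0.47 in Grow against Normal (edgeR, adjusted p = 0.0330).

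**Figure D2:**
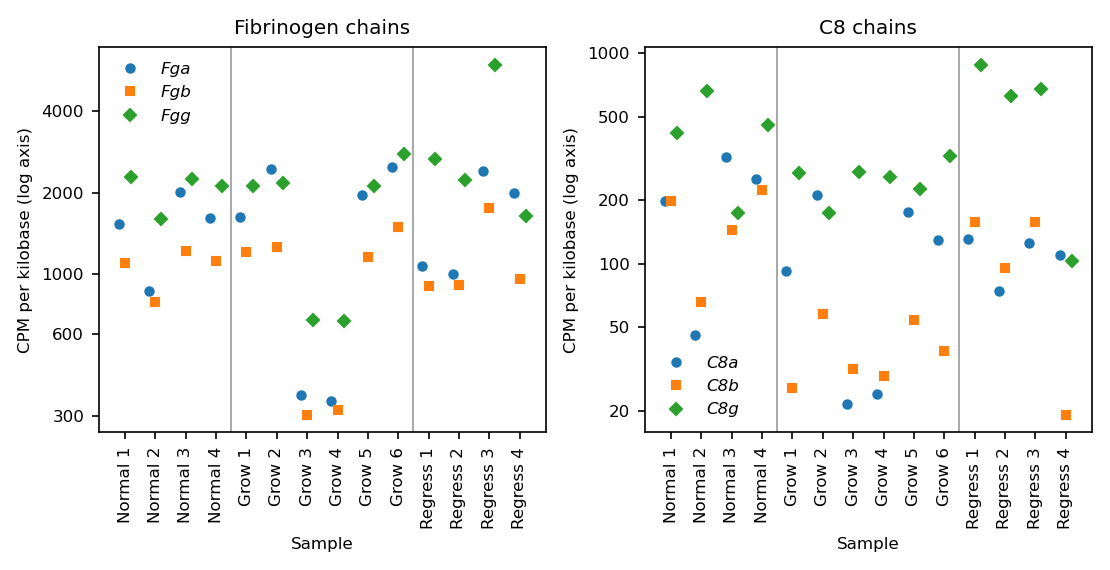
Points give CPM per kilobase on a log axis for the chains of fibrinogen (left) and of C8 (right) in each sample, with lines between Normal, Grow and Regress. All 3 fibrinogen chains are lowest in Grow 3 and Grow 4, whereas C8b lies well below C8a in Grow 1, 2, 5 and 6 and in Regress 4.

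Among the complement regulators, Cfi was higher and Vtn lower in most tumours. Cfi, the protease that inactivates C3b and C4b, stood at 741, 637, 726 and 732 CPM in Normal 1 to 4, from 448 through a median of 998 to 1376 CPM in Grow, and at 604, 1453, 1895 and 919 CPM in Regress 1 to 4. Grow 1, 2, 5 and 6 and Regress 2, 3 and 4 lay above every normal liver, and Grow 3, Grow 4 and Regress 1 below every one. Mean Cfi was 709 ± 48.4, 909.9 ± 381 and 1217 ± 572 CPM, and edgeR's log2 fold change was 0.57 ± 0.37 (adjusted p = 0.483). Vtn, vitronectin, which keeps the forming pore out of membranes, stood at 2226, 1143, 2636 and 2415 CPM in Normal 1 to 4, from 1047 through a median of 1421 to 1983 CPM in Grow, and at 1120, 1258, 1502 and 1466 CPM in Regress 1 to 4. All tumours lay below Normal 1, 3 and 4, and the overlap came from Normal 2 alone. Its means were 2105 ± 663, 1447 ± 388 and 1336 ± 180.3 CPM, with a log2 fold change of -0.60 ± 0.28 (edgeR, adjusted p = 0.269). C4bp, the C4b-binding protein and cofactor of Cfi, averaged 776 ± 147, 754 ± 148 and 935 ± 328 CPM.

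The contact and intrinsic factors included the member with the highest fitted value, Kng1, and one of the lowest, Klkb1. Kng1, kininogen, which carries plasma prekallikrein and releases bradykinin, stood at 2591, 2712, 2125 and 2617 CPM in Normal 1 to 4, from 1532 through a median of 3538 to 9634 CPM in Grow, and at 2584, 4988, 5563 and 3955 CPM in Regress 1 to 4. Grow 1 and Grow 6 held 9634 and 7830 CPM, far above any normal liver, and Grow 3 and Grow 4 lay below all of them. Mean Kng1 was 2511 ± 263, 4607 ± 3366 and 4272 ± 1307 CPM, and the log2 fold change was 0.82 ± 0.48 (edgeR, adjusted p = 0.418). In Grow against Normal it was 0.88 ± 0.51, and without Grow 3 and Grow 4 and with the length trend removed 1.36 ± 0.36 (edgeR, adjusted p = 0.0388), a setting chosen after the data were seen. Kng2, a near copy, ran from 266 to 433 CPM in Normal and from 268 to 1071 CPM in tumours, so reads may be shared between the pair. Klkb1, plasma prekallikrein, stood at 100.1, 63.1, 189 and 160.0 CPM in Normal 1 to 4, from 45.5 through a median of 77.3 to 135 CPM in Grow, and at 65.8, 63.5, 64.9 and 59.3 CPM in Regress 1 to 4. The 4 Regress values lay close together at the bottom of the normal range, with Regress 4 just below it. The means of Klkb1 were 128 ± 57.0, 82.3 ± 37.5 and 63.4 ± 2.90 CPM, with a log2 fold change of -0.83 ± 0.32 (edgeR, adjusted p = 0.178). F12, which starts the contact route, averaged 176 ± 45.0, 177 ± 56.0 and 158 ± 40.5 CPM. F11, which F12 activates, averaged 72.2 ± 33.6, 92.3 ± 51.6 and 98.0 ± 38.2 CPM, and F9, the factor lacking in haemophilia B, 244 ± 28.0, 205 ± 32.1 and 212 ± 80.2 CPM. All 3 overlapped between groups.

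In the extrinsic and common route, no member had an unadjusted p under 0.05. F7, the partner of tissue factor, stood at 96.9, 72.5, 104 and 111 CPM in Normal 1 to 4, from 29.3 through a median of 68.7 to 96.0 CPM in Grow, and at 51.2, 99.6, 103 and 70.7 CPM in Regress 1 to 4. Grow 1, Grow 3, Grow 4, Regress 1 and Regress 4 lay below the normal range and the other tumours inside it. Mean F7 was 96.2 ± 16.7, 63.6 ± 29.5 and 81.1 ± 24.7 CPM, and edgeR gave a log2 fold change of -0.42 ± 0.32 (adjusted p = 0.582). F2, prothrombin, stood at 1922, 1563, 1654 and 2098 CPM in Normal 1 to 4, from 1083 through a median of 1701 to 2096 CPM in Grow, and at 1324, 3858, 3082 and 1491 CPM in Regress 1 to 4. Regress 2 and Regress 3 exceeded every normal liver, and Grow 3, Grow 4, Regress 1 and Regress 4 lay below every one. The means of F2 were 1809 ± 245, 1616 ± 410.0 and 2439 ± 1234 CPM, with a log2 fold change of 0.13 ± 0.32 (edgeR, adjusted p = 0.919). F10, which cleaves prothrombin, averaged 448 ± 52.0, 322 ± 88.5 and 421 ± 151 CPM, and F5, its cofactor, 388 ± 228, 473 ± 181 and 293 ± 253 CPM.

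Fibrinogen is built from the products of Fga, Fgb and Fgg, which lie side by side in the genome, and in all 3 genes Grow 3 and Grow 4 were the lowest samples. The bases before the start of each gene are shown to set the motifs of the 3 promoters side by side. The sequences are from RefSeq (assembly GRCm38.p6), each the 250 bases before the start site on the strand of the gene, 5′ to 3′, with capitals for matches on either strand to HNF1 (GTTAATNAT), C/EBP (TTGCNNAA) or STAT (TTCNNNGAA) motifs. Fga and Fgg are on the plus and Fgb on the minus strand.
Fga: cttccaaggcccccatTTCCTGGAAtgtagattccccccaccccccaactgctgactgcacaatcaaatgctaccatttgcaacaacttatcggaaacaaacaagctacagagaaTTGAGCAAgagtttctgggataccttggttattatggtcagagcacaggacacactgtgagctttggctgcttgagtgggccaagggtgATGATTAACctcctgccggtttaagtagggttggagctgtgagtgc
Fgb: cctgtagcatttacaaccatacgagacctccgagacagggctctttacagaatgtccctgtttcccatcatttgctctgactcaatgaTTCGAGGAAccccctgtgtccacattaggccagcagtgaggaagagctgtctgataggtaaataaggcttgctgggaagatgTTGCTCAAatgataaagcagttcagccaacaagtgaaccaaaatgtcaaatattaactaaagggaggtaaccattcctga
Fgg: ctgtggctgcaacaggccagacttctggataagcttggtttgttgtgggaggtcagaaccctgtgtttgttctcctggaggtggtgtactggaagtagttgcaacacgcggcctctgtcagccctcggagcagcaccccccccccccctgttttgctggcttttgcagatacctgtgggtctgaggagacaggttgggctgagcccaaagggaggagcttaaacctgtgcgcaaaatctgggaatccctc
The Fga window holds 1 match to each of the 3 motifs, with HNF1 starting 46, C/EBP 135 and STAT 234 bases before the start. The Fgb window holds C/EBP 80 and STAT 162 bases before it, and the Fgg window holds none. Of the 30 members with an entry, 4 held the HNF1 motif (C4bp, F13b, Fga and Hc), 8 the C/EBP and 6 the STAT motif, which is 13.3, 26.7 and 20% against 0.87, 10.84 and 8.13% of the 27025 genes of the table. A match describes letters only and does not show binding.

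Fga stood at 3971, 2251, 5224 and 4159 CPM in Normal 1 to 4, from 883 through a median of 4652 to 6433 CPM in Grow, and at 2784, 2583, 6206 and 5150 CPM in Regress 1 to 4. Grow 3 and Grow 4, at 924 and 883 CPM, lay far below every other sample, and Grow 2, Grow 6 and Regress 3 lay above every normal liver. Mean Fga was 3901 ± 1231, 3981 ± 2522 and 4181 ± 1784 CPM, and the log2 fold change was 0.06 ± 0.52 (edgeR, adjusted p = 0.981). Fgb stood at 4193, 3020, 4661 and 4282 CPM in Normal 1 to 4, from 1152 through a median of 4496 to 5682 CPM in Grow, and at 3457, 3465, 6703 and 3645 CPM in Regress 1 to 4. The same 2 libraries, Grow 3 and Grow 4, were lowest at 1152 and 1198 CPM, and Regress 3 was highest. Its means were 4039 ± 709, 3636 ± 1956 and 4317 ± 1592 CPM, with a log2 fold change of -0.03 ± 0.42 (edgeR, adjusted p = 0.99). Fgg stood at 3879, 2709, 3803 and 3589 CPM in Normal 1 to 4, from 1137 through a median of 3592 to 4704 CPM in Grow, and at 4508, 3768, 10098 and 2787 CPM in Regress 1 to 4. Grow 3 and Grow 4 held 1147 and 1137 CPM, and Regress 3 held 10098 CPM, far above every other sample. The means of Fgg were 3495 ± 538, 2974 ± 1480 and 5290 ± 3282 CPM, and edgeR gave 0.18 ± 0.44 on the log2 scale (adjusted p = 0.918). The per-length log2 ratio of Fgb to Fgg was -1.06 to -0.88 in Normal, -1.16 to -0.79 in Grow and -1.76 to -0.78 in Regress, so the chains kept their order in all samples for this pair. Fga and Fgg did not, with a log2 ratio of -0.877 to -0.152 in Normal, -0.975 to 0.178 in Grow and -1.312 to 0.276 in Regress. The positive values were in Grow 2 and Regress 4, with length slopes over all features of 0.409 and 0.388, whose part was not tested. The ratio used the longest Fga row, of 2587 bases, although the row of 2083 bases held most Fga counts. The shorter length would raise the ratio in every sample. F13b, the carrier chain of the factor that cross-links fibrin, stood at 274, 259, 229 and 324 CPM in Normal 1 to 4, from 148 through a median of 178 to 228 CPM in Grow, and at 250.2, 199, 251 and 98.3 CPM in Regress 1 to 4. All Grow values lay below all normal values, in Grow 3 and Grow 4 only just, and Regress 2 and Regress 4 lay below them too. Mean F13b was 271 ± 39.7, 186 ± 36.4 and 199.6 ± 71.7 CPM, with a log2 fold change of -0.50 ± 0.25 (edgeR, adjusted p = 0.317).

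The clotting inhibitors were split, with Serpinc1, Proc and Pros1 on the lower and Serpind1 on the higher side. Serpinc1, antithrombin, the main inhibitor of thrombin and factor Xa, stood at 2484, 1955, 2217 and 2556 CPM in Normal 1 to 4, from 1177 through a median of 1529 to 1897 CPM in Grow, and at 1856, 1856, 2242 and 934 CPM in Regress 1 to 4. Every Grow tumour lay below every normal liver, and of the Regress tumours Regress 3 alone reached the normal range. Mean Serpinc1 was 2303 ± 274, 1537 ± 292 and 1722 ± 556 CPM, and the log2 fold change was -0.50 ± 0.26 (edgeR, adjusted p = 0.349). Serpind1, heparin cofactor II, a second inhibitor of thrombin, stood at 691, 591, 632 and 731 CPM in Normal 1 to 4, from 483 through a median of 864 to 1086 CPM in Grow, and at 541, 1203, 1171 and 789 CPM in Regress 1 to 4. Grow 1, 2, 5 and 6 and Regress 2, 3 and 4 lay above every normal liver, the other 3 tumours below every one. The means of Serpind1 were 662 ± 61.9, 789.6 ± 250.5 and 926 ± 318 CPM, with a log2 fold change of 0.37 ± 0.30 (edgeR, adjusted p = 0.613). Proc, protein C, which inactivates factors V and VIII, stood at 412, 315, 417 and 459 CPM in Normal 1 to 4, from 244 through a median of 298 to 366 CPM in Grow, and at 247, 364, 316 and 249.7 CPM in Regress 1 to 4. Grow 2, Grow 6, Regress 2 and Regress 3 lay within the normal range and the other 6 tumours below it. Mean Proc was 401 ± 60.6, 307 ± 44.0 and 294 ± 56.5 CPM, and edgeR gave -0.42 ± 0.20 on the log2 scale (adjusted p = 0.301). Pros1, the cofactor of protein C, averaged 58.6 ± 14.0, 54.5 ± 11.9 and 38.1 ± 12.9 CPM.

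Among fibrinolysis genes, Serpinf2, which encodes the inhibitor of plasmin, was higher in most tumours, and Plg, the precursor of plasmin, was not. Plg stood at 1810, 1128, 2825 and 2318 CPM in Normal 1 to 4, from 759.8 through a median of 1764 to 2516 CPM in Grow, and at 1049, 1515, 1820 and 1875 CPM in Regress 1 to 4. Grow 3, Grow 4 and Regress 1 lay below the normal range and the other tumours inside it. Mean Plg was 2020 ± 725, 1671 ± 785 and 1565 ± 379 CPM, with a log2 fold change of -0.32 ± 0.37 (edgeR, adjusted p = 0.766). Serpinf2 stood at 666, 408, 801 and 987 CPM in Normal 1 to 4, from 435 through a median of 1422 to 1949 CPM in Grow, and at 503, 1626, 1519 and 1358 CPM in Regress 1 to 4. Grow 1, 2, 5 and 6 and Regress 2, 3 and 4 lay above every normal liver, and Grow 3, Grow 4 and Regress 1 in the lower part of the normal range. The means of Serpinf2 were 715 ± 244, 1196 ± 613 and 1251 ± 511 CPM, and edgeR's log2 fold change was 0.77 ± 0.45 (adjusted p = 0.418). Cpb2, a carboxypeptidase that slows fibrinolysis, averaged 446 ± 108, 334 ± 117 and 462 ± 261 CPM.

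Cfi, Kng1, Serpind1 and Serpinf2 thus shared 1 pattern, in that all 4 lay above the whole normal range in the same 7 tumours and in none of the other 3. That is 10.5% of the members, against 1.47% of all tested features, and the same 4 genes had it when counts were scaled to library totals. It was not particular to the members. Of the other plasma proteins of hepatocytes listed below, Alb, Trf and Ahsg also had it and the rest did not. Trf held 39498 to 63323 CPM in the 7 tumours, at most 26877 in Normal and 9855 to 12072 in the other 3. Ahsg held 10919 to 18690, at most 6320 and 3011 to 3442 CPM in the same order. Clu, a further complement gene, had it too. The pattern was picked out after the values were seen. The same 7 tumours had the high hepatocyte marker sum of 150000 to 218000 CPM, with Alb at 111445 to 187356 CPM against 28650 to 53813 CPM in Normal, whereas Cps1, another marker of that list, was at 658 to 1782 CPM in them against 1518 to 3937 CPM in Normal. Its part in the 4 genes was not tested.

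**Figure D3:**
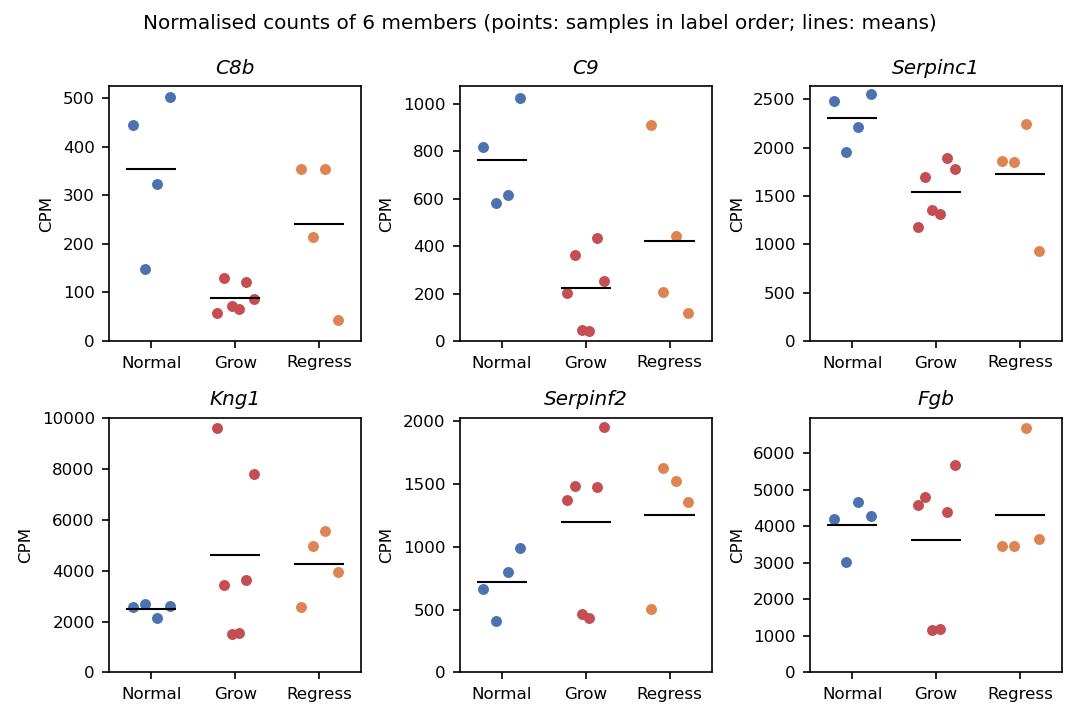
Each point is the CPM of a sample, in label order within a group, and each line a group mean, for 6 members. Grow lies wholly below Normal for C8b, C9 and Serpinc1, while Kng1 and Serpinf2 lie above the normal range in 7 tumours but not in Grow 3, Grow 4 and Regress 1, and Fgb is low in Grow 3 and Grow 4.

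In Grow tumours against normal liver, none of the 38 genes passed an adjusted p of 0.05, against 1.12% of features called higher and 0.642% called lower. C8b came closest, at an edgeR adjusted p of 0.0503. It passed with DESeq2 (adjusted p = 0.00186) and in 6 further settings, among them the fits of these 2 groups only, with DESeq2 size factors (edgeR, adjusted p = 0.0495) and without Regress 4 (edgeR, adjusted p = 0.0110). The adjusted p of C8b was 0.112 with limma-voom and, with edgeR, 0.0944 without Grow 3 and Grow 4 and 0.183 without Normal 4 and Regress 2, the samples that share a code. The edgeR test gave 4 members at an unadjusted p under 0.05, Mbl2, C4b, C8b and C9, or 10.5% against 16.6% of all features. DESeq2 and limma-voom gave 8 and 4, or 21.1 and 10.5% against 18.8 and 14.6%. The fitted values were negative for 28 and positive for 10, with a median of -0.28 against -0.002 for all features, and for 22 and 16 without Grow 3 and Grow 4.

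For 5 members, Mbl2, C8b, C9, F13b and Serpinc1, every Grow value lay below every normal value, 13.2% of the members against 4.28% of all features, and for none did every Grow value lie above, against 5.27%. These are a lectin, 2 parts of the pore, the carrier of the fibrin cross-linker and antithrombin. Without Grow 3 and Grow 4 the same 5 and Mbl1 lay wholly below, 15.8% against 8.67%, and Cfi, Kng1, Serpind1 and Serpinf2 wholly above, 10.5% against 11.4%.

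In Regress tumours against normal liver, no member was called, against 0.0244% of features in either direction. DESeq2, which called 712 features, and limma-voom, which called 0, gave no member either, with 9 and 4 members at an unadjusted p under 0.05, or 23.7 and 10.5% against 18.1 and 13% of all features. With edgeR 4 members, Masp1, C4b, Klkb1 and Pros1, had an unadjusted p under 0.05, all lower in Regress, or 10.5% against 16.2% of all features. Their log2 fold changes were -1.06 ± 0.49, -1.20 ± 0.48, -1.02 ± 0.40 and -0.62 ± 0.28. Masp1, C4b and Klkb1 are among the longest members, at 5345, 5379 and 5249 bases. Length dependence differed between libraries, as described below. Without Normal 3, which had the highest length slope, 0 members had an unadjusted p under 0.05 (edgeR), against 1395 of 12621 features. With the length trend removed 4 members did, against 2175 of 11421 features. The part of length in each gene was not tested. C6 had the lowest value, -1.40 ± 0.67, and Serpinf2 the highest, 0.81 ± 0.52. The median over the 38 was -0.25, with 25 negative and 13 positive, against 0.03 for all features. No member had all Regress values above or all below the normal livers, against 2.72% and 3.20% of features, and none separated all 10 tumours from Normal, against 1.09% above and 0.935% below. Grow against Normal and Regress against Normal share their 4 normal samples, so their values are not independent.

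**Figure D4:**
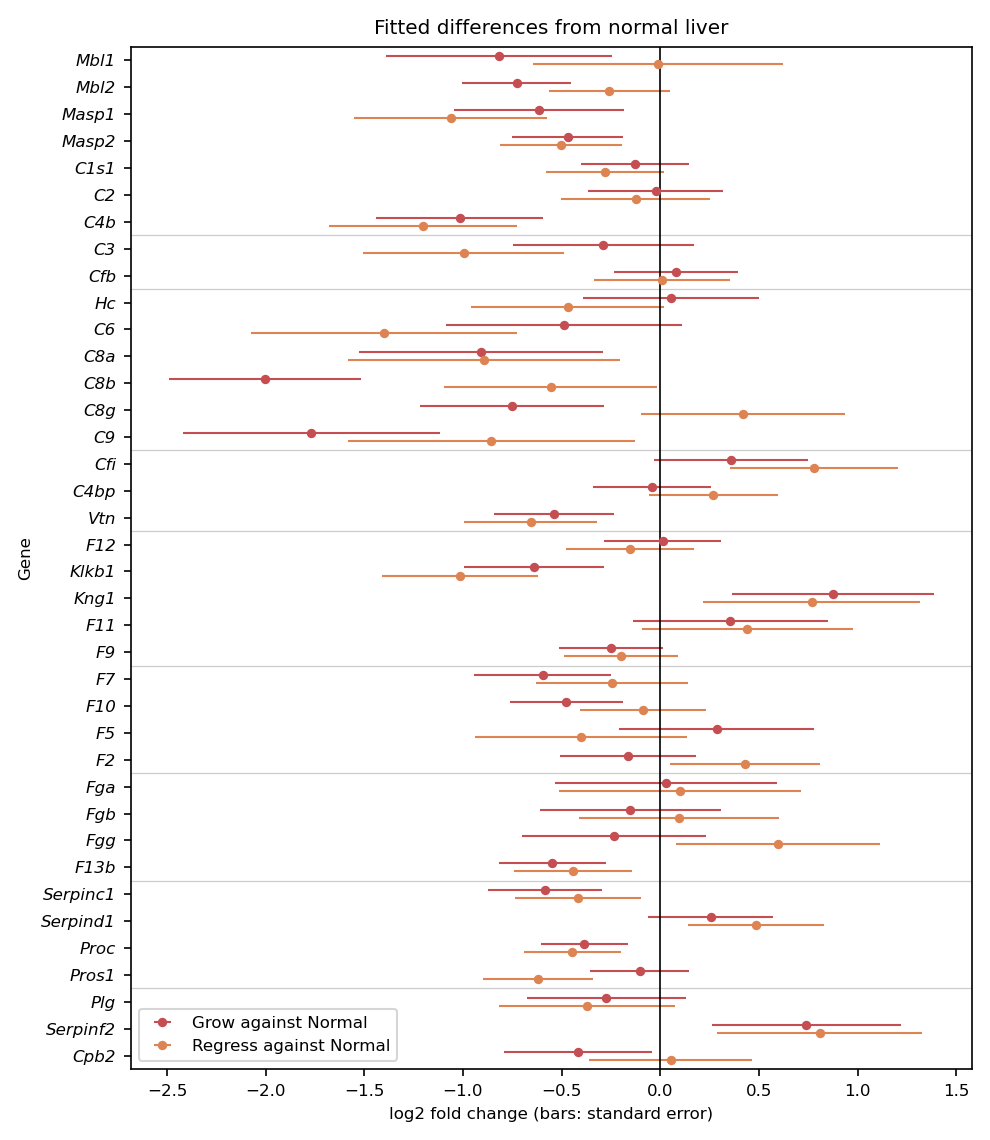
Points are log2 fold changes of the 38 genes against normal liver from edgeR, with bars of 1 standard error, for Grow and for Regress, and lines between roles. C8b and C9 lie furthest left in Grow and C6 in Regress, while Kng1 and Serpinf2 lie right of 0 in both.

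Regressing against growing tumours is the direct comparison of the 2 tumour labels. No member was called, against 0% of features. DESeq2 called 31 features and no member, limma-voom none, and the members with an unadjusted p under 0.05 were 2 with edgeR, 4 with DESeq2 and 2 with limma-voom, the latter pair 10.5 and 5.26% of the members against 12.8 and 7.98% of all features. The 2 with edgeR, C8b at 1.45 ± 0.48 and C8g at 1.17 ± 0.46 on the log2 scale, were higher in Regress, which is 5.26% of the members against 10.0% of all features. Both chains were lowest of the Regress tumours in Regress 4. Without it, 1249 of 12520 features were called and 3 of the 38 members, which is no larger a share. These were C8b at 1.80 ± 0.37 (edgeR, adjusted p = 0.0291), C8g at 1.52 ± 0.34 (edgeR, adjusted p = 0.0309) and F5 at -1.51 ± 0.44 (edgeR, adjusted p = 0.0468). Regress 1, Regress 2 and Regress 3, which remained, had the lowest length slopes over all features (-0.352, -0.387 and -0.475), as described below. F5 is the longest member, at 7430 bases, and C8g one of the shortest, at 1150 bases. With the length trend removed and no sample left out, 1 member had an unadjusted p under 0.05 (edgeR), against 957 of 11421 features. The part of length in these genes was not tested. The split of 17 negative and 21 positive members became 24 and 14 when counts were scaled to library totals, a scaling that moved the median of all features from -0.01 to -0.22. No member separated the 2 labels without overlap, against 0.374% of features above and 0.545% below.

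TMZ was given to 5 of the 10 tumours. Grow 2, Grow 3 and Grow 4 had received it at 22 mg/kg together with SAHA, Regress 1 and Regress 3 at 31 mg/kg without SAHA. The fit had no term for SAHA or for dose, so effects of the drugs were not separated in Grow. Of all features 0% were called in the fit with group and TMZ, and no member. Mbl1 came closest. It stood at 62.4, 202, 215, 392 and 244 CPM in the tumours with TMZ (Grow 2, 3 and 4, Regress 1 and 3) and at 55.1, 56.3, 76.7, 107 and 35.6 CPM in those without (Grow 1, 5 and 6, Regress 2 and 4). Only Grow 2 lay among the tumours without TMZ. The log2 difference was 1.67 ± 0.40 (edgeR, adjusted p = 0.102). Mbl1 passed with DESeq2 (adjusted p = 0.00254), with the length trend removed (edgeR, 0.0428) and without Grow 2 (edgeR, 0.0108), and not without Grow 3 and Grow 4, where it was 1.34 ± 0.57 (edgeR, adjusted p = 0.808). Kng1 at -1.08 ± 0.43 and F11 at -1.01 ± 0.42 also had an unadjusted p under 0.05, both lower with TMZ, and these 3 are 7.89% of the members against 13.9% of features. DESeq2 and limma-voom gave 7 and 4, or 18.4 and 10.5% against 16.4 and 15.5%. The members were 24 negative and 14 positive, and 14 negative and 24 positive without Grow 3 and Grow 4, so the direction rested on that pair.

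SAHA was given to 4 of the 6 Grow tumours, and 0% of features and no member were called between Grow with and without it. By edgeR, DESeq2 and limma-voom 0 members had an unadjusted p under 0.05, against 2.64% of all features by edgeR. The 38 were 24 negative and 14 positive, with Mbl1 highest at 1.32 ± 0.78 and Kng1 lowest at -0.89 ± 0.63. Without Grow 3 and Grow 4, which leaves 2 samples on each side, 6 were negative and 32 positive. Scaled to library totals 19 lay on each side, while the median of all features moved from 0.005 to 0.19.

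Grow 3 and Grow 4, both given SAHA with TMZ, stood apart from the other tumours over the whole set. In each, 27 of the 38 members (71.1%) lay below the lowest normal liver, against 21.6 and 21.8% of all features. In neither did a member lie above the highest normal liver, against 22.0 and 22.3% of all features. The members took 2.47 and 2.29% of the counts of Grow 3 and Grow 4, and the fibrinogen chains 0.409 and 0.384%, against 0.767 to 1.43% in Normal. The low values were not particular to the 38 genes. Of the 22 other plasma proteins of hepatocytes listed below, most also lay below the lowest normal liver in both Grow 3 and Grow 4. The exceptions were Apoa1, Apoa2, Hpx and Rbp4, inside the normal range, and Serpina6, above it. In the other Grow tumours 8 to 16 members (21.1 to 42.1%) lay below the normal range, against 19.9 to 24.6% of all features. Above it lay 4 to 9 (10.5 to 23.7%), against 22.8 to 25.4%. In Regress 7 to 19 members (18.4 to 50%) lay below, against 27.4 to 32.4% of all features, and 4 to 12 (10.5 to 31.6%) above, against 26.6 to 29.8%. The summed recruited monocyte markers, 6 of 6 measured, were 387 and 385 CPM in Grow 3 and Grow 4 against 37.5 to 346 CPM in Normal, and 380 and 641 CPM in Regress 1 and Regress 3, of which Regress 3 had the most members above the normal range. Most of the sum was Lyz2, at 369 and 368 CPM in Grow 3 and Grow 4, where S100a8 and S100a9 lay within their normal ranges. The part of these markers in the low values was not tested. Cps1, a hepatocyte marker, was at 55.8 and 50.3 CPM there against 1518 to 3937 CPM in Normal, while Asgr1, another, was at 646 and 624 CPM against 339 to 777 CPM.

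The dependence on length differed between libraries and reached the members. Over 11421 features with a known length, the slope of the deviation from the mean log2 CPM ran from -0.48 per doubling of length in Regress 3 to 0.44 in Normal 3. Over the 38 members it ran from -0.63 to 0.60 in the same 2 libraries. The members' slope was highest in Normal 3, Grow 2 and Regress 4 (0.60, 0.52 and 0.46) and lowest in Regress 3, 2 and 1 (-0.63, -0.60 and -0.39). F5, the longest member, stood at 719, 700 and 673 CPM in Normal 3, Grow 2 and Regress 4 and at 162 to 172 CPM in Regress 1, 2 and 3. Grow 6, with a slope of 0.20 for the members, held 652 CPM of it, and Grow 5, Grow 1 and Normal 4, with slopes of 0.24, 0.07 and 0.07, held 472, 464 and 361 CPM. Removing the trend left the Tumour against Normal split at 27 negative and 11 positive and called no member.

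**Figure D5:**
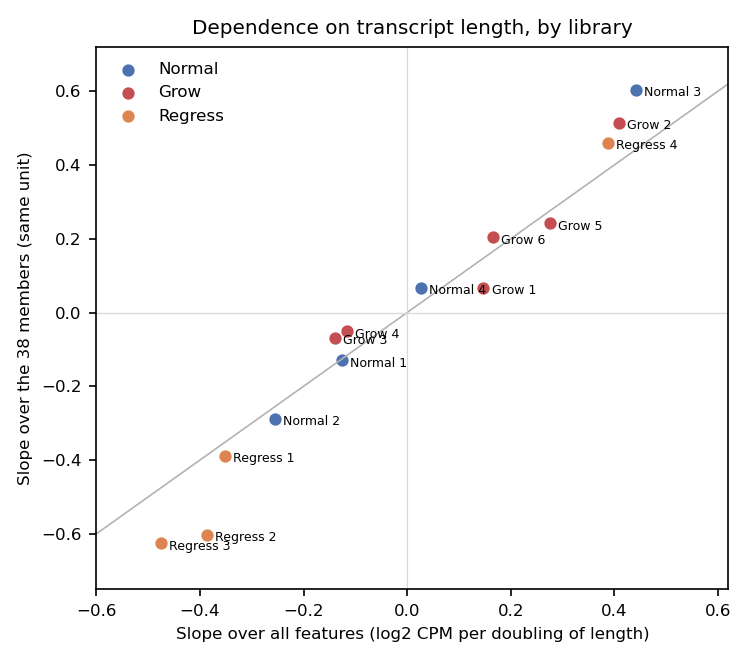
Each point is a library, with the slope of its deviation from the mean log2 CPM per doubling of transcript length over all features (horizontal) and over the 38 members (vertical), and the line marks equality. The members follow the library as a whole, with Normal 3, Grow 2 and Regress 4 at the upper right and Regress 1, 2 and 3 at the lower left.

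Other genes of the same systems were counted as lists chosen for their function. Over all features, 18% had an unadjusted p under 0.05 in Tumour against Normal (edgeR), and 0.642% were called lower in Grow against Normal. Of 24 further complement genes 19 were tested, and none was called in Tumour against Normal, with 7 positive and 12 negative, a median of -0.08 and 5 at an unadjusted p under 0.05. In Grow against Normal, Colec11, a collectin that also starts the lectin route, was called lower at -1.82 ± 0.42 (edgeR, adjusted p = 0.0424). Of 23 further clotting genes 19 were tested and 0 called in Tumour against Normal, with a median of 0.18 and 6 at an unadjusted p under 0.05, and Fgl1, a fibrinogen-like protein, was called lower in Grow at -1.97 ± 0.47 (edgeR, adjusted p = 0.0475). The 7 genes of the carboxylation and export of clotting factors gave 0 calls and 0 unadjusted p under 0.05 in Tumour against Normal. Of 15 regulators of secretory genes 0 were called in Tumour against Normal, with a median of -0.27 and 4 at an unadjusted p under 0.05, and in Grow the bile acid receptor Nr1h4 was called lower at -1.25 ± 0.29 (edgeR, adjusted p = 0.0467). The 22 other plasma proteins of hepatocytes had a median of -0.24 with 0 called and 4 at an unadjusted p under 0.05, so their median was close to that of the 38. DESeq2 and limma-voom were not run as separate counts for these lists.

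Markers of other cell types were examined in the same fit. In Tumour against Normal the lists of proliferating cells, sinusoidal and continuous endothelium held calls, Ccnb1, Cdk1 and Top2a, Lyve1, and Cd34, all higher, and those of hepatocytes, Kupffer cells, recruited monocytes, stellate cells, cholangiocytes, platelets and erythroid cells held none. Only 1 of 5 platelet, 2 of 3 erythroid and 4 of 5 cholangiocyte genes passed the filter and were tested. Lyve1 did not stand for its list, since only 2 of the 5 sinusoidal genes had positive fitted values, with a median log2 fold change of -0.104. In the continuous list all 5 were positive, with a median of 0.297. The proliferation sum was 0.727 to 2.28 CPM in Normal, 23.1 to 44.3 in Grow and 2.77 to 47.1 in Regress. The Kupffer sum was 301 to 902, 57.3 to 415 and 201 to 784 CPM, the stellate and matrix sum 214 to 364, 97.5 to 187 and 138 to 1170 CPM with the highest value in Regress 4. Most of the stellate and matrix sum in Normal was Dcn, at a mean of 222 CPM, against 43.3 CPM in Grow, where Dcn was called lower. In Grow against Normal, however, 5 of the 7 genes of that list had positive fitted values, with a median log2 fold change of 0.705. The cholangiocyte sum was 14.0 to 24.8, 15.4 to 114 and 27.8 to 145 CPM. Of the markers, Cd34, Epcam, Sox9, Ppbp, Gp9, Gp1bb, Mki67 and Ccnb1 were at 0 in at least 1 sample. Regress 4, which was the lowest Regress tumour for C8b, C8g, C9 and Serpinc1, thus also had the most matrix transcripts, and the part of these in its low values was not tested.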

How the data were processed

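RNA of 14 liver and tumour samples was extracted with Qiagen RNeasy kits and made into TruSeq RNA v2 libraries, which do not mark strand, per the labels' protocols. The authors deposited estimated counts per transcript, 35230 rows for 14 samples, and the submitters' processing notes list Salmon 0.3.1, edgeR 3.14.0 and the mm9 build without role or order. A column without values (1 in all) was not used. Rows were named by accession through RefSeq (26081 rows) or GENCODE (144), 9005 stayed unmatched and kept their own names, and rows of a gene were summed into 30436 features and rounded to whole counts. The unmatched rows held 3.52 to 12.05% of a library's counts.

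Features were filtered with filterByExpr, scaled by TMM and fitted with edgeR 4.0.16 (quasi-likelihood test, R 4.3.3) in all 14 samples, with a common biological coefficient of variation of 0.484. P-values were adjusted over all 12300 tested features by Benjamini-Hochberg, and 0.05 was the threshold. For Tumour against Normal, the Grow and Regress coefficients were averaged. TMZ was a term beside the group, and SAHA was tested with Grow split into samples with and without it. Each standard error was derived from the fold change and its F statistic, as |log2 fold change| over the root of F. DESeq2 1.42.0, limma-voom (limma 3.58.1), other scalings and filters, a replicate block, a length correction and the omission of each sample were tried as alternatives. The fits were tested on simulated data with known changes.

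The 38 members and the gene lists were chosen with earlier results of these data known. Every member is named with its group means. Values by sample go to members called in a group comparison (none), to the 12 lowest unadjusted p in Tumour against Normal, to the members with the largest and smallest fold of each role and to the fibrinogen chains, 26 genes in all. Reads of C4b and C4a, Kng1 and Kng2, and C1s1 and C1s2 may be split wrongly between near copies.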

Additional observations from a re-analysis of the deposited data

Results flagged for a closer look

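In 9 of 114 groups of 4 or 6 samples (7.89%), 1 sample of a member lay far from the rest of its group, where chance gives about 1 in 20. Of these, 3 were in Regress 4, where C3 was 6800 CPM against 2130 to 2500 CPM in the other Regress tumours, F5 was 673 CPM against 162 to 172 CPM, and C8g was 118 CPM against 720 to 1020 CPM. Regress 4 also had a positive length slope and the matrix transcripts described above, whose part was not tested. In Regress 1, Cfb was 704 CPM against 1270 to 1410 CPM, F11 was 41.4 CPM against 111 to 125 CPM, and Serpinf2 was 503 CPM against 1360 to 1630 CPM, all low. Fgb in Regress 3 was 6700 CPM against 3460 to 3650 CPM in the other Regress tumours. C4bp in Grow 2 was 477 CPM against 730 to 871 CPM, and Cfi in Normal 2 was 637 CPM against 726 to 741 CPM.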

How the results depend on the processing

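Features called in Tumour, Grow and Regress against Normal were 285, 217 and 3, and none between tumour groups or treatments. They became 1055, 1014 and 712 with DESeq2, which also called 31 in Regress against Grow, 464 for TMZ and 52 for SAHA, and 127, 90 and 0 with limma-voom, which called 2 for TMZ. Regress against Normal gave 35 with DESeq2 size factors, 0 with library totals (7 for TMZ), 57 when tested features had a log2 CPM of 1 or more on average and 0 with only the groups compared, a fit that gave 877 for Grow. Without a filter TMZ gave 1. With the length trend removed the counts were 657, 549 and 157, and 81 for TMZ, and with the highest RefSeq row only 182, 115 and 0. Without the 2 samples of 1 code they were 0, 18 and 0. With Grow 3 and Grow 4 summed Grow gave 113 and Regress 0. Chosen after the data were seen, the omission of both gave 570, 474 and 126, with the length trend removed as well 954, 784 and 359, and the sum with the length trend removed 603, 475 and 136. Leaving out 1 sample gave 0 (without Normal 3) to 991 (without Regress 1) for Tumour, 4 (without Normal 1) to 651 (without Regress 4) for Grow, 0 to 667 (without Regress 1) for Regress, 0 to 1249 (without Regress 4) for Regress against Grow, 0 to 737 (without Grow 2) for TMZ and 0 to 0 for SAHA.

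Members called moved from 0 to 1 for Grow (C8b) with DESeq2, DESeq2 size factors, library totals, only the groups compared and the length trend removed, for Grow (Kng1) with the length trend removed and without both Grow 3 and Grow 4, and for TMZ (Mbl1) with DESeq2 and the length trend removed. Leaving out 1 sample gave 0 to 1 for Tumour, Grow and TMZ, 0 to 3 for Regress against Grow and 0 to 0 for Regress and SAHA.

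Replicate numbers did not pair the samples, whose deviations correlated at -0.52 to 0.20 between same-numbered samples. With the replicate block 0 features and 0 members were called in each comparison, and Cfb (-0.071), F2 (-0.036), Fga (-0.16) and Fgg (-0.08) turned negative in Tumour against Normal.

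Of 1105 values of 39 single-gene results, 1058 kept direction and side of the threshold, 13 passed it and 34 changed sign, all in genes near 0, and 32 results never did. Fga was -0.12 with limma-voom. Cfb was -0.003 and Fgb 0.045 without the 2 samples of 1 code. Fgb was 0.065 with Grow 3 and Grow 4 summed, 0.088 with the length trend removed too, 0.000 with that trend alone removed, 0.23 without both and 0.20 without both and with it removed, where C2 was 0.10 and 0.054. Leaving out 1 sample gave -0.28 to 0.16 for C2, -0.067 to 0.15 for Cfb, -0.43 to 0.12 for C8g, -0.024 to 0.24 for F2, -0.13 to 0.24 for Fga, -0.18 to 0.066 for Fgb and -0.079 to 0.29 for Fgg. The causes were not tested. The fit of only the groups compared was the same as the first fit for Tumour against Normal.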

Other observations

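Some members are the sum of several deposited transcript rows, and their shares were compared as a description. The main Kng1 row, the one of 1995 bases, held 64.6 ± 6.31% of the Kng1 counts in Normal, 74.4 ± 4.88% in Grow and 77.2 ± 3.48% in Regress. The first C1s1 row, of 2906 bases, held 45.8 ± 6.58, 54.8 ± 3.75 and 50.4 ± 6.93%. The shorter Fga row held 69.7 ± 11.2, 65.2 ± 5.91 and 70.4 ± 5.17%, and the longer Masp2 row, which includes the protease domain, 61.3 ± 6.69, 63.6 ± 9.06 and 58.2 ± 8.25%. How reads were divided among rows of 1 gene is an estimate of the authors' program.

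The remaining motifs searched in the 30 promoter windows were TATAAA, found in Hc, Klkb1 and Vtn (10.0% of members, 14.33% of all genes), the HNF4 motif CAAAGTCCA (0 of 30, 0.45% of all genes) and the inverted repeat GGTCANTGA bound by the bile acid receptor (0 of 30, 0.84% of all genes).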
